A study of Mus musculus with 6 samples.

Results

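The genes described here carry out DNA replication and mitosis. A list of 51 was chosen by gene symbol, 22 for replication and entry into it and 29 for mitosis. On the array 50 of them had at least 1 probe set, a group of probes for a transcript, that the probe table pairs with a single symbol. They are 50 of the 19938 genes measured that way in all. Ccnb1, which encodes cyclin B1, had no such probe set and was left out. Where a gene had more than 1 probe set, the brightest by its mean over the 6 arrays was used.

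RNA of the whole ileum, the last stretch of the small intestine, was hybridised to Affymetrix mouse gene arrays, 1 array per mouse. The 3 mice labelled Gata6 KO were GATA6 flox/flox and carried Villin-CreERT2, a tamoxifen-inducible Cre recombinase driven by a promoter active in intestinal epithelium. The 3 control mice carried Villin-CreERT2 without the floxed alleles, and mice of both groups received tamoxifen on 5 consecutive days at 6 to 8 weeks of age. Tissue was taken 28 days later, at 10 to 12 weeks by the treatment protocol. Cells outside the epithelium, such as muscle, stroma and lymphoid cells, are part of the RNA and keep Gata6 by this design.

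A dividing cell first licenses its replication origins, when Cdc6 and Cdt1 load the ring of Mcm proteins onto DNA, then fires them in S phase with Cdc45 and the GINS proteins. The E2F transcription factors drive the genes of that step, and they are freed when cyclin-dependent kinases inactivate the retinoblastoma protein. A later set of genes, used in G2 and mitosis, builds the spindle, checks its attachment and ends mitosis by ubiquitin-dependent destruction of cyclins, and many of those genes carry a promoter element named the cell cycle homology region (CHR), bound by the MuvB core of the DREAM and B-Myb complexes. In the ileum most dividing epithelial cells sit in the crypts, above and between the Paneth cells, and lymphoid follicles hold dividing lymphocytes.

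The promoter sequences that carry these elements are shown for 8 genes, because E2F forms were more frequent among the replication genes here and CHR forms among the mitosis genes, and the results below are ordered by these roles. They come from the RefSeq promoter table of assembly GRCm38.p6, read 5′ to 3′ on the strand of the gene. The first 3 windows are the full 300 bases, 250 before to 50 after the start, of Birc5 and E2f2, the genes whose signal passed the test of difference. E2f2 has a window for each of its listed starts. The other stretches run from 150 bases before to 50 after the start. They belong to the replication genes with an E2F form (Cdc6, Cdt1, Mcm6) and the mitosis genes with a CHR form (Cdk1, Aurka, Cdc20) that had the smallest p-values. Capitals mark matches on either strand to the E2F forms TTTCCCGC, TTTCGCGC, TTTGCCGC and TTTGGCGC, the CHR forms TTTGAA and TTTAAA, and the NF-Y box CCAAT. A run of capitals in Mcm6 holds overlapping E2F forms from both strands.
Birc5, chr11:117848987-117849286, plus strand: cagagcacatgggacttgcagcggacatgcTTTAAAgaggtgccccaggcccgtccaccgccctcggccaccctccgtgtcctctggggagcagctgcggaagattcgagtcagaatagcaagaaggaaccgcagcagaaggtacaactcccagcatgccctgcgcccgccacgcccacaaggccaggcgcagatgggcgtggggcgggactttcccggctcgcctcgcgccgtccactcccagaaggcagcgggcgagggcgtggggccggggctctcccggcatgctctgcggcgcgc
E2f2, chr4:136172024-136172323, plus strand: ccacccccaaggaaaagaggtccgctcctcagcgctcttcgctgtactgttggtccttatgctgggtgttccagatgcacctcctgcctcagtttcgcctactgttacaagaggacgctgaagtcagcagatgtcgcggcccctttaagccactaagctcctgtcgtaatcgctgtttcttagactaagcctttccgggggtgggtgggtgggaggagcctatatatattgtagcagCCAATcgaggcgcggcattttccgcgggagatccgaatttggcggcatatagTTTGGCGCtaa
E2f2, chr4:136180532-136180831, plus strand: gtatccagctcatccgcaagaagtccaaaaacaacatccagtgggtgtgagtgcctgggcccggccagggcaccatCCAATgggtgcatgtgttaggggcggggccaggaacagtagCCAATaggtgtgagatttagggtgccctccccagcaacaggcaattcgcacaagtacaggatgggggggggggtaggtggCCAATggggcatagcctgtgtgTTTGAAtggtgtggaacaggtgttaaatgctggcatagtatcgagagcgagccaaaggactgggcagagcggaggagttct
Cdc6, chr11:98908001-98908200, plus strand: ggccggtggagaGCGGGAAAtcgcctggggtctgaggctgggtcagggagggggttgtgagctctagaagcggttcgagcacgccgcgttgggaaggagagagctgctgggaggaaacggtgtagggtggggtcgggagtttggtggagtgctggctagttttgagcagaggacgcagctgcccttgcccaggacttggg
Cdt1, chr8:122567865-122568064, plus strand: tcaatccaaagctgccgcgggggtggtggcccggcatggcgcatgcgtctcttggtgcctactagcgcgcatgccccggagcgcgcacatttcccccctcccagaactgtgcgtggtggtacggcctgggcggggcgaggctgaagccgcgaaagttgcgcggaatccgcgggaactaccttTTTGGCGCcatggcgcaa
Mcm6, chr1:128359656-128359855, minus strand: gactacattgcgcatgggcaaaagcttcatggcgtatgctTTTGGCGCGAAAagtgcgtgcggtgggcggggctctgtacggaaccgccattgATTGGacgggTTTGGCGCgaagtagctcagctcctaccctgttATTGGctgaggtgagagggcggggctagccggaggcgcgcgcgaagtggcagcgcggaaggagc
Cdk1, chr10:69352863-69353062, minus strand: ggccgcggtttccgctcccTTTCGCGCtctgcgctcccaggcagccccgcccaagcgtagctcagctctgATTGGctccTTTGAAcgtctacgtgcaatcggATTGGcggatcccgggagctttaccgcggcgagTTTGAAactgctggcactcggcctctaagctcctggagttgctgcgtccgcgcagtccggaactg
Aurka, chr2:172370521-172370720, minus strand: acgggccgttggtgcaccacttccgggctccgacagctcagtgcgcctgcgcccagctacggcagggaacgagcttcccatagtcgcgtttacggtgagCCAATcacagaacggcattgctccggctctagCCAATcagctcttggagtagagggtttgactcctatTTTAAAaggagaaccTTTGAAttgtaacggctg
Cdc20, chr4:118437294-118437493, minus strand: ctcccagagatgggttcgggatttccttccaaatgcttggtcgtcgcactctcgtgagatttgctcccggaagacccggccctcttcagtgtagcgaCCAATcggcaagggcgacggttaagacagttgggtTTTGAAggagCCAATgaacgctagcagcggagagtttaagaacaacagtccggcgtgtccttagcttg

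A match is a description of these letters and not a shown binding site. Positions give the first base of a match, with the start as 1 and the base before it as -1. In the first E2f2 window the E2F form TTTGGCGC begins at 40, and the second window has instead a CHR form and 3 NF-Y boxes. Birc5 holds no E2F form in its window, and its CHR form TTTAAA begins at -220. Mcm6 holds E2F forms at -110, -106 and -47, and Cdt1 holds the form TTTGGCGC at 33. In Cdk1 an E2F form at -131 stands with CHR forms at -71 and -15. Cdc20 has its CHR form at -18, between NF-Y boxes, whereas Aurka has CHR forms at 18 and 33, downstream of its start.

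The promoter table held 41 of the 50 measured genes, 17 for replication and 24 for mitosis, matched by gene identifier. An E2F form occurred in 8 of 17 replication genes (47.1%), in 2 of 24 mitosis genes (8.33%, Cdk1 and the condensin gene Ncapg) and in 2.6% of all 27025 genes of the table. A gene counted if any of its windows held the form, and 4 of the 41 had more than 1 window. Counted by window, the E2F shares were 40%, 8% and 2.26%. A CHR form was found in 7 of 17 replication genes (41.2%), 21 of 24 mitosis genes (87.5%) and 30.6% of all genes. Within 50 bases of the start on either side, a range chosen after the positions were seen, the CHR shares were 29.4% of replication genes, 79.2% of mitosis genes and 9.54% of all genes. The NF-Y box stood in 64.7% of replication genes, 83.3% of mitosis genes and 41.1% of all genes. The letters do not separate the roles cleanly, since most replication genes held no E2F form in these windows and several held a CHR form. The shares use no array value, and their difference was not tested.

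**Figure D1:**
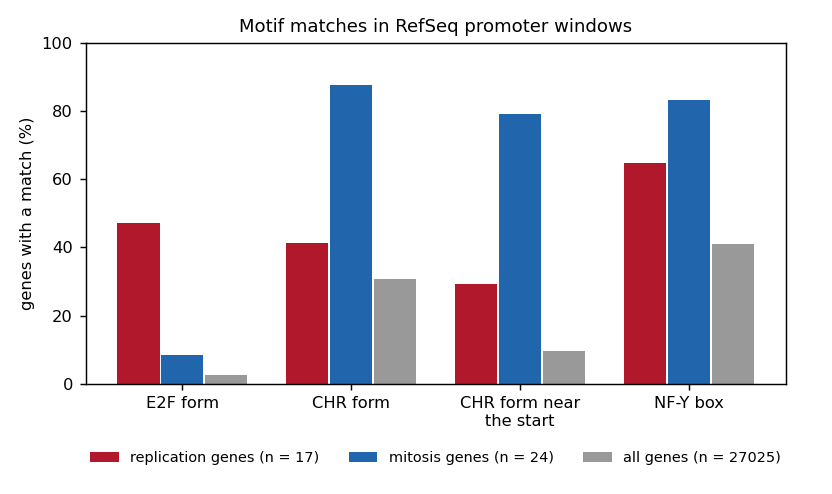
Share of genes (%, y axis) whose RefSeq promoter window holds each element (x axis), for replication genes (red, n = 17), mitosis genes (blue, n = 24) and all genes of the table (grey, n = 27025). The E2F form is most frequent among replication genes at 47.1%, and the CHR form among mitosis genes at 87.5%.

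Over all probe sets, correlations were 0.980 to 0.984 between the groups and 0.987 to 0.992 within them. The number of arrays limits the precision. Gata6 itself read 6.93, 6.81 and 6.86 on the log2 scale in the mice labelled Gata6 KO, against 6.31, 6.33 and 6.50 in the controls, a log2 difference of 0.49 (SE 0.08, limma adjusted p = 0.0162). The targeted gene was thus higher, not lower, in the group labelled as its knockout, and the labels do not say whether its probe set reads the deleted part. The directions below therefore rest on the labels. Control 3 alone read low for Xist (2.31, against 7.39 to 7.81 on the other arrays) and high for the Y-linked Eif2s3y (5.30, against 0.27 to 0.61). Values without it are given further below for the medians, for some of the named genes and for the called genes of the wider lists. Mean log2 signal of 10 pan-epithelial markers was 9.68 to 9.81 in the KO-labelled mice and 9.63 to 9.79 in the controls. Among them Vil1 was called lower (-0.41, limma adjusted p = 0.0225) and Krt19 higher (0.33, adjusted p = 0.0394). Ileal enterocyte markers, 7 in number, had 6.97 to 7.61 in the KO-labelled mice and 8.08 to 8.67 in the controls, 4 of them called lower.

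Most replication and mitosis genes had a somewhat lower signal in the mice labelled Gata6 KO, and few differences exceeded the spread between mice. Of 50 genes, 2 fell, E2f2 and Birc5, none rose, and 48 did not pass the limma threshold of an adjusted p of 0.05. Over all genes 3.25% fell and 4.99% rose, so 2 of 50 is near the background. The difference was below 0 for 46 genes (92%) and above 0 for 4, with a median of -0.18 and a range of -0.50 to 0.16 on the log2 scale. Over all genes the median was -0.004 with 50.8% below 0. Among the 12786 genes whose mean signal lies in the range of these genes, the median was 0.04 with 42.9% below 0. At an unadjusted p under 0.05 there were 12 of the 50 genes, all lower, against 2051 lower and 2877 higher of all 19938 genes.

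The signals of the groups did not overlap, with every KO-labelled mouse below every control, for 12 of 50 genes, against 12.6% of all genes. The reverse held for 1 gene, Anln, against 16.8% of all genes. These counts describe genes whose signals move together over the same 6 mice, so they are not independent of each other. The typical precision was a standard error of 0.11 and a 95% interval of 0.27 to either side, which is wider than the median difference.

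**Figure D2:**
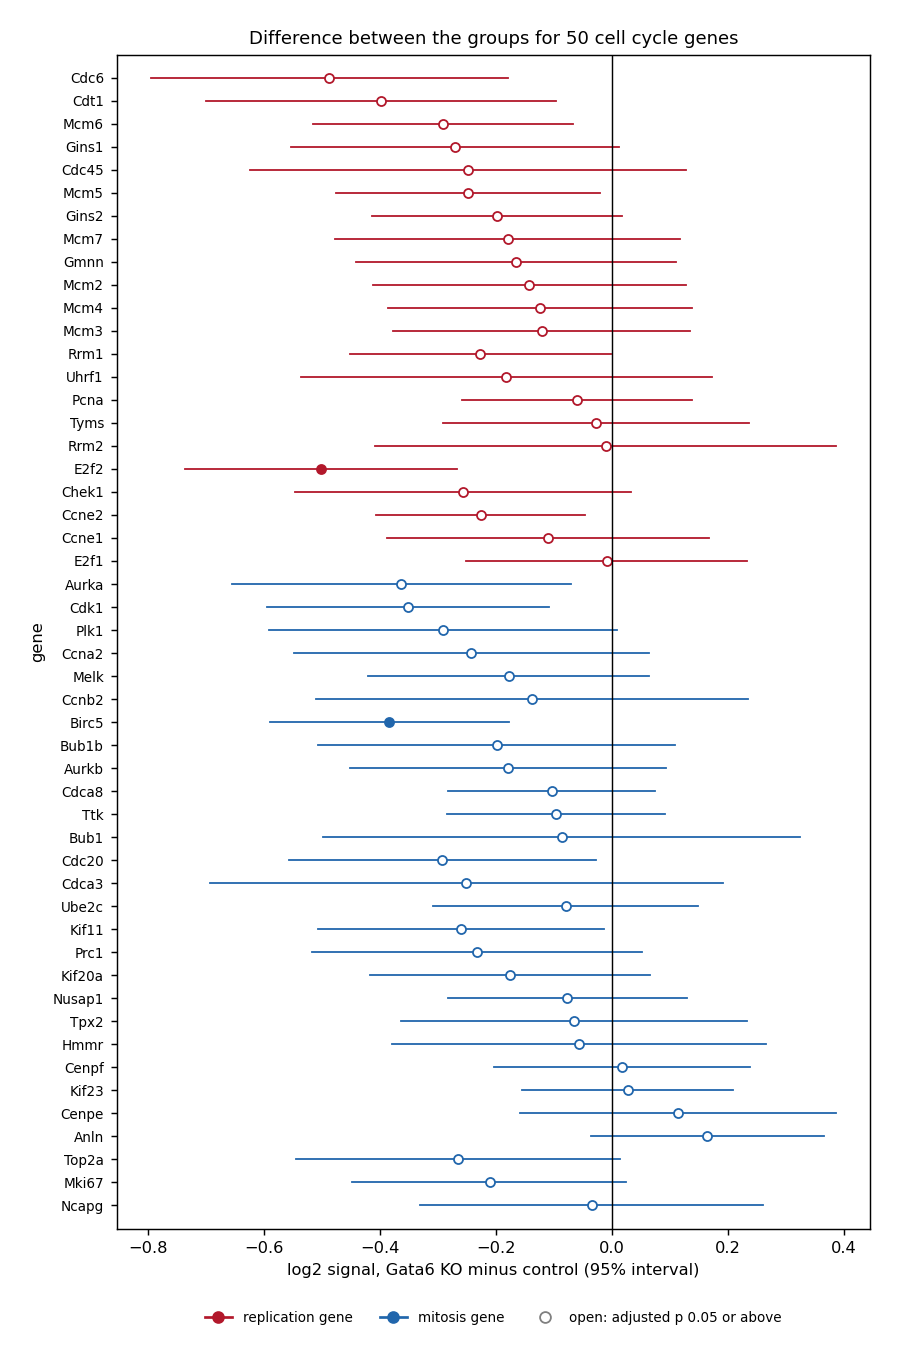
Log2 signal of the KO-labelled mice minus controls (x axis) with 95% intervals, for 22 replication genes (red) and 28 mitosis genes (blue), ordered by role. Filled points mark E2f2 and Birc5, whose adjusted p was under 0.05. The point lies below 0 for 46 of 50 genes and most intervals include 0.

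E2f2 encodes an activator of the E2F family. It read 4.37, 4.51 and 4.30 in the KO-labelled mice, against 4.97, 4.74 and 4.98 in the controls. The groups do not overlap. Its log2 difference was -0.50 (SE 0.10, 95% interval -0.74 to -0.27, limma adjusted p = 0.0264), a signal 29.4% lower. Birc5 encodes survivin, the subunit that brings the chromosomal passenger complex to centromeres. It read 4.78, 4.64 and 4.73 in the KO-labelled mice, against 5.12, 4.98 and 5.20 in the controls, again with no overlap. The log2 difference was -0.38 (SE 0.09, 95% interval -0.59 to -0.18, limma adjusted p = 0.0416), a signal 23.4% lower. Neither call held up with fewer mice in most fits. Of the 6 fits that leave out 1 mouse, only the fit without control 2 kept them, with limma adjusted p = 0.0262 for E2f2 and 0.0377 for Birc5. In the other 5 the adjusted p was 0.0601 to 0.0978 for E2f2 and 0.0826 to 0.15 for Birc5. The size of the difference changed little over the 6 fits, at -0.58 to -0.46 for E2f2 and -0.45 to -0.33 for Birc5.

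In whole tissue, fewer dividing cells and less RNA per dividing cell cannot be told apart. The 12 licensing and helicase genes all lay below 0, with a median of -0.22, and none passed. Cdc6, which recruits the Mcm ring to origins, read 4.28, 4.35 and 4.47 in the KO-labelled mice, against 5.11, 4.83 and 4.62 in the controls. KO-labelled mice were lower throughout, and the controls spread widely. Its log2 difference of -0.49 (SE 0.13) was nearly as large as that of E2f2 but missed the threshold (limma adjusted p = 0.0681). It passed with dim genes left out (0.0384) and with the trended, robust variance prior (0.0450). Over all 18 alternatives the adjusted p of Cdc6 was 0.0384 to 0.436.

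Cdt1, the partner of Cdc6 in licensing, read 5.38, 5.54 and 5.43 in the KO-labelled mice, against 6.12, 5.78 and 5.65 in the controls. Control 1 stands out as the highest, and no KO-labelled value reaches the lowest control. The log2 difference was -0.40 (SE 0.13, limma adjusted p = 0.112). The helicase subunit Mcm6 read 6.32, 6.12 and 6.03 in the KO-labelled mice, against 6.41, 6.52 and 6.41 in the controls, a log2 difference of -0.29 (SE 0.10, adjusted p = 0.117). Here the controls are tight and KO 1 comes near them. The other 9 genes of this group, which include further Mcm subunits, the GINS subunits, Cdc45 and the licensing inhibitor Gmnn, had log2 differences of -0.27 to -0.12. Of these only Mcm5 had groups that did not overlap.

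Genes of DNA synthesis, nucleotide supply and the upkeep of DNA methylation had a median log2 difference of -0.060 over 5 genes, with a range of -0.23 to -0.011, and none passed. Rrm1, the large subunit of ribonucleotide reductase, read 6.74, 6.71 and 6.62 in the KO-labelled mice, against 7.07, 6.89 and 6.78 in the controls. The groups lie just apart. The log2 difference was -0.23 (SE 0.10, limma adjusted p = 0.199). Pcna, the sliding clamp of DNA polymerases and a widely used mark of dividing cells, read 8.10, 8.26 and 8.10 in the KO-labelled mice, against 8.30, 8.16 and 8.18 in the controls. Those values interleave, and the log2 difference was -0.060 with a 95% interval of -0.26 to 0.14. A second probe set of Pcna gave -0.055. Uhrf1, which carries DNA methylation through replication, had a log2 difference of -0.18 (SE 0.15), and Rrm2 and Tyms had -0.011 and -0.028.

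Among the 5 regulators of S phase entry and its checkpoint the median was -0.23. Ccne2, cyclin E2, read 2.73, 2.84 and 2.75 in the KO-labelled mice, against 2.97, 2.95 and 3.08 in the controls. The groups did not overlap, but its mean was under the arrays' median signal, as were those of Gmnn and the spindle checkpoint kinase gene Ttk, so the size is uncertain. The log2 difference was -0.23 (SE 0.08, limma adjusted p = 0.126). Chek1, the kinase that answers stalled forks, read 4.15, 4.22 and 4.24 in the KO-labelled mice, against 4.27, 4.73 and 4.39 in the controls. Control 2 alone is high, control 1 lies just above the KO-labelled mice, and the difference of -0.26 had a 95% interval of -0.55 to 0.03. E2f1, the paralogue of E2f2, differed by -0.009 with an interval of -0.25 to 0.23.

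**Figure D3:**
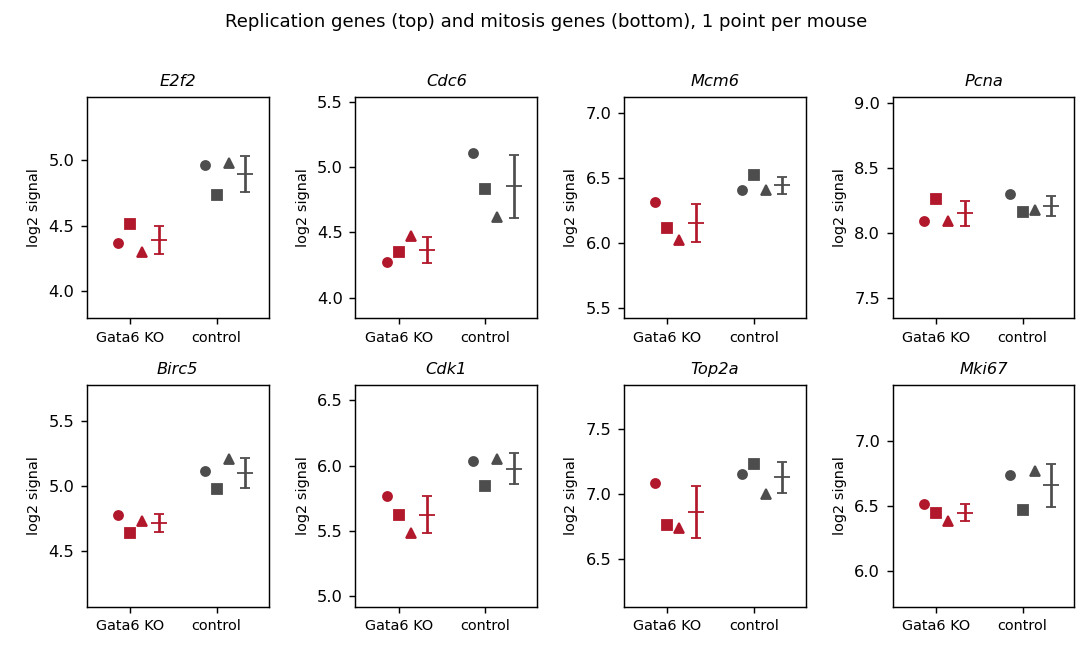
Log2 signal (y axis) of 4 replication genes (top) and 4 mitosis genes (bottom) in mice labelled Gata6 KO (red, left) and control mice (grey, right), 1 point per mouse, with circles for replicate 1, squares for replicate 2 and triangles for replicate 3. Bars give the mean ± SD (n = 3). The groups lie apart for E2f2, Cdc6, Mcm6, Birc5 and Cdk1 and overlap for Pcna, Top2a and Mki67.

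The 6 mitotic cyclin and kinase genes all lay below 0, with a median log2 difference of -0.27, and none passed. Cdk1, the kinase that starts mitosis, read 5.77, 5.62 and 5.48 in the KO-labelled mice, against 6.04, 5.84 and 6.05 in the controls. The groups do not overlap, though KO 1 and control 2 are close. The log2 difference was -0.35 (SE 0.10, limma adjusted p = 0.0883). Aurka, the spindle pole kinase, read 5.76, 5.54 and 5.36 in the KO-labelled mice, against 6.08, 5.80 and 5.87 in the controls, a log2 difference of -0.36 (SE 0.12, adjusted p = 0.129). Plk1, which acts from mitotic entry to cell division, read 6.46, 6.43 and 6.58 in the KO-labelled mice, against 7.01, 6.53 and 6.80 in the controls. KO 3 lies above control 2 in this gene, and the difference was -0.29 (SE 0.13). The cyclin and kinase genes Ccna2, Ccnb2 and Melk had differences of -0.24 to -0.14.

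In the chromosomal passenger complex and the spindle checkpoint, 6 genes had a median of -0.14, and Birc5 had the largest difference. Aurkb, the kinase of the complex, had -0.18 (95% interval -0.45 to 0.09), and Cdca8, the subunit borealin, had -0.10 (interval -0.28 to 0.07). Whether these differences are smaller than that of Birc5 was not tested. The checkpoint kinase gene Bub1b had -0.20 (SE 0.13), and the groups of Bub1 overlapped. The 3 genes of mitotic exit had a median of -0.25. Cdc20, which activates the ubiquitin ligase of anaphase, read 5.20, 5.22 and 5.35 in the KO-labelled mice, against 5.72, 5.34 and 5.59 in the controls. Control 2 falls within the KO-labelled values, and the difference was -0.29 (SE 0.11, limma adjusted p = 0.167). Ube2c, the ubiquitin-conjugating enzyme used by that ligase, had -0.080 and Cdca3 had -0.25 with an interval of -0.69 to 0.19.

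The 10 genes of the kinetochore and spindle were the most mixed, with a median of -0.061 and 6 below 0. Kif11, the motor that pushes spindle poles apart, read 5.67, 5.49 and 5.49 in the KO-labelled mice, against 5.98, 5.79 and 5.67 in the controls, a log2 difference of -0.26 (SE 0.11, limma adjusted p = 0.184). KO 1 slightly exceeds control 3. Prc1, which bundles microtubules between the separating chromosomes, had -0.23 (SE 0.12). The 4 genes above 0 all belong here and, apart from Anln, were picked out after their values were seen. They were Anln at 0.16, the kinetochore motor Cenpe at 0.11, Kif23 at 0.03 and Cenpf at 0.02. Anln encodes anillin, a scaffold of the contractile ring. It read 4.92, 4.84 and 4.79 in the KO-labelled mice, against 4.74, 4.76 and 4.57 in the controls, and the interval of the difference was -0.04 to 0.37.

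Of the genes of chromosome structure, Mki67 is the most used mark of cycling cells. It read 6.51, 6.44 and 6.38 in the KO-labelled mice, against 6.74, 6.47 and 6.77 in the controls. Control 2 lies among the KO-labelled mice, and the log2 difference was -0.21 (95% interval -0.45 to 0.03, limma adjusted p = 0.246). Top2a, the topoisomerase that untangles sister chromatids, read 7.09, 6.76 and 6.74 in the KO-labelled mice, against 7.15, 7.23 and 6.998 in the controls. KO 1 is within the controls, and the difference was -0.27 (SE 0.12). A second probe set of Top2a was dim, with a mean of 0.53, and gave 0.15. Ncapg, a condensin subunit, had -0.035 and its groups overlapped.

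Replication and mitosis genes had nearly the same median difference, -0.19 over 22 genes and -0.18 over 28. The difference of these medians was -0.013. All 22 replication genes and 24 of 28 mitosis genes lay below 0. The groups did not overlap, with KO-labelled mice lower, for 8 of 22 replication genes and 4 of 28 mitosis genes, against 12.6% of all genes. The mitosis count is thus near the background. No test of the 2 sets against each other was made. Divided by promoter letters instead, the median was -0.27 for the 10 genes with an E2F form and -0.14 for the 31 without. For the CHR form the medians were -0.19 with it (28 genes) and -0.18 without it (13 genes). These too are descriptions of genes that share the same mice.

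Single mice moved many of these genes together. Relative to each gene's control mean, the median log2 deviation was -0.10, -0.18 and -0.24 in the KO-labelled mice 1, 2 and 3, and 0.13, -0.12 and -0.04 in the controls. Control 2 thus lies beyond KO 1 and the controls differ among themselves by more than the median difference between the groups. Control 1 was the highest control for 33 of 50 genes, against 37.7% of all genes, and control 2 was the lowest for 34 of 50, against 8330 of the 19938 genes in all. KO 1 was the highest KO-labelled mouse for 22 of 28 mitosis genes but for 7 of 22 replication genes, against 34.9% of all genes. The replication count is thus near that of all genes. Its median deviation was -0.045 over the mitosis genes and -0.15 over the replication genes.

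**Figure D4:**
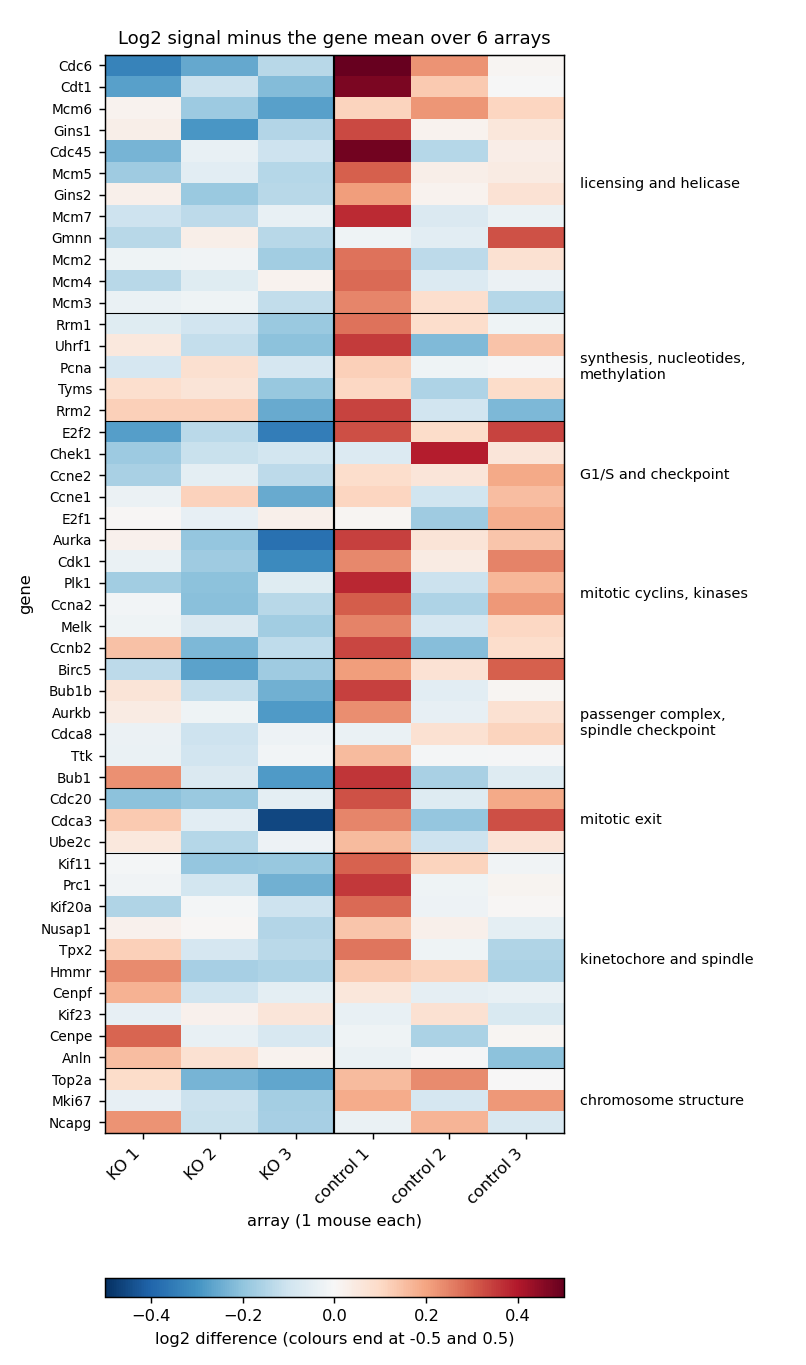
Log2 signal of 50 genes (rows, by role) in the mice labelled Gata6 KO (left 3 columns) and the controls (right 3 columns), as the difference from the gene's mean over the 6 arrays, red above and blue below it. Control 1 is the highest control for 33 of 50 genes, and the KO-labelled mice are mostly blue.

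Leaving out control 1 took the median over the 50 genes to -0.091, with 42 below 0. Without control 2 the median was -0.24 with 46 below 0, and without control 3, the array with male signals, it was -0.18 with 45 below 0. Without control 3, E2f2 differed by -0.46 and Birc5 by -0.33 on the log2 scale, and neither passed (limma adjusted p = 0.0978 and 0.127). In the same fit Cdc6 had -0.60, Cdt1 -0.50, Mcm6 -0.31, Aurka -0.39 and Cdk1 -0.32, with adjusted p of 0.0566 to 0.239. Medians there were -0.22 for the replication genes and -0.16 for the mitosis genes. Centred on their own medians, the arrays gave -0.12 over these genes, 41 of them below 0, and 0.05 over all genes.

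Marker levels of other cells stand beside these values. All 10 smooth muscle markers lay above 0 with a median log2 difference of 0.34, and Tagln rose. Their mean level was 7.74 to 8.09 in the KO-labelled mice and 7.55 to 7.75 in the controls. Of 6 fibroblast markers all lay above 0 with a median of 0.42, none passed the limma threshold, 4 had an unadjusted p under 0.05, and the mean level was 8.15 to 8.47 in the KO-labelled mice and 7.68 to 8.13 in the controls. With the smooth muscle level as a covariate, which itself nearly separates the groups, the median over the 50 genes was -0.026, with 28 below 0, and neither E2f2 (-0.45) nor Birc5 (-0.24) passed, with limma adjusted p = 0.391 and 0.554. The B cell covariate is the mean of the 7 B cell and 4 germinal centre B cell markers described below. This mean is higher in every KO-labelled mouse than in every control, so this covariate too is tied to the group. With it the median was -0.23 with 44 below 0. The differences were -0.67 for E2f2 and -0.34 for Birc5, and neither passed (limma adjusted p = 0.1 and 0.36). Over all alternatives the adjusted p was 0.0134 to 0.391 for E2f2 and 0.0238 to 0.554 for Birc5.

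B cell markers, 7 in number, had a mean level of 2.56 to 2.87 in the KO-labelled mice and 2.72 to 2.82 in the controls, 5 of them below the array median, and none passed, also at an unadjusted p under 0.05. Markers listed for germinal centre B cells had 3.75 to 3.87 in the KO-labelled mice and 3.25 to 3.36 in the controls. Most of that gap comes from Rgs13 alone, which rose by 1.76 (limma adjusted p = 0.0243) with a mean under the arrays' median signal. Which cells of the ileum carry the Rgs13 RNA was not tested. The other 3 markers, Bcl6 (0.19), Gcsam (0.17) and S1pr2 (-0.17), did not pass and their groups overlapped. Crypt base stem cell markers had 4.67 to 4.89 in the KO-labelled mice and 5.41 to 5.53 in the controls, with 2 of 10 called lower, Olfm4 and Axin2. Most of that gap in the mean comes from Olfm4, which fell by 6.22 on the log2 scale. Over the 10 markers the median difference was -0.14, and 5 lay above 0, among them Lgr5 at 0.26 (limma adjusted p = 0.0854). Paneth cell markers had 5.82 to 6.76 in the KO-labelled mice and 8.33 to 8.69 in the controls, all 6 called lower. T cell markers had 4.56 to 4.87 in the KO-labelled mice and 4.47 to 4.66 in the controls. Of 6, 5 lay above 0, with a median of 0.18. None passed limma's threshold, with 1 at an unadjusted p under 0.05. Myeloid markers had 6.15 to 7.02 in the KO-labelled mice and 5.87 to 6.52 in the controls. Of 6, 5 lay above 0, with a median of 0.27, and Cd14 alone passed. The part of these cells in the differences of the cell cycle genes was not tested.

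Wider lists of cell cycle genes, taken whole, held 197 further genes, of which 191 were measured. Of these 5 rose and 6 fell (8 and 4 with each array centred on its median), shares no higher than those over all genes, 180 did not pass, and the median log2 difference was -0.067 with 122 below 0. The largest differences were among inhibitors of the cyclin-dependent kinases, where 2 of 6 rose and 1 fell. Cdkn1a, also on that list, had no probe set with a single symbol and was not measured. Cdkn1b, p27Kip1, which restrains cyclin E and cyclin A kinases, read 6.87, 6.84 and 6.78 in the KO-labelled mice, against 6.24, 6.36 and 6.13 in the controls. The groups lie well apart. Its log2 difference was 0.59 (SE 0.09, limma adjusted p = 0.00852). Cdkn1b has 2 probe sets, and these values are from the brighter. Cdkn1c, p57Kip2, of the same family, read 5.22, 5.28 and 5.06 in the KO-labelled mice, against 4.72, 4.47 and 4.31 in the controls, with a difference of 0.69 (SE 0.12, adjusted p = 0.0181).

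Cdkn2b went the other way. This inhibitor of Cdk4 and Cdk6 read 6.66, 6.55 and 6.69 in the KO-labelled mice, against 7.58, 7.61 and 7.80 in the controls. Every control is far above every KO-labelled mouse. The log2 difference was -1.03 (SE 0.09, limma adjusted p = 0.00137). Cdkn1b and Cdkn2b passed in all 6 fits that leave out 1 mouse, whereas Cdkn1c passed in 2 of 6, with adjusted p of 0.0147 to 0.0856. Over all 18 alternatives Cdkn1b passed in 15, Cdkn2b in 16 and Cdkn1c in 11. Their limma adjusted p reached 0.219, 0.0752 and 0.276, and none of them passed with the smooth muscle covariate. G1 cyclins and their kinases had a median of 0.035 over 6 genes. Among them Ccnd3, cyclin D3, rose by 0.34 (SE 0.08, adjusted p = 0.0485) and passed in none of the fits that leave out 1 mouse.

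**Figure D5:**
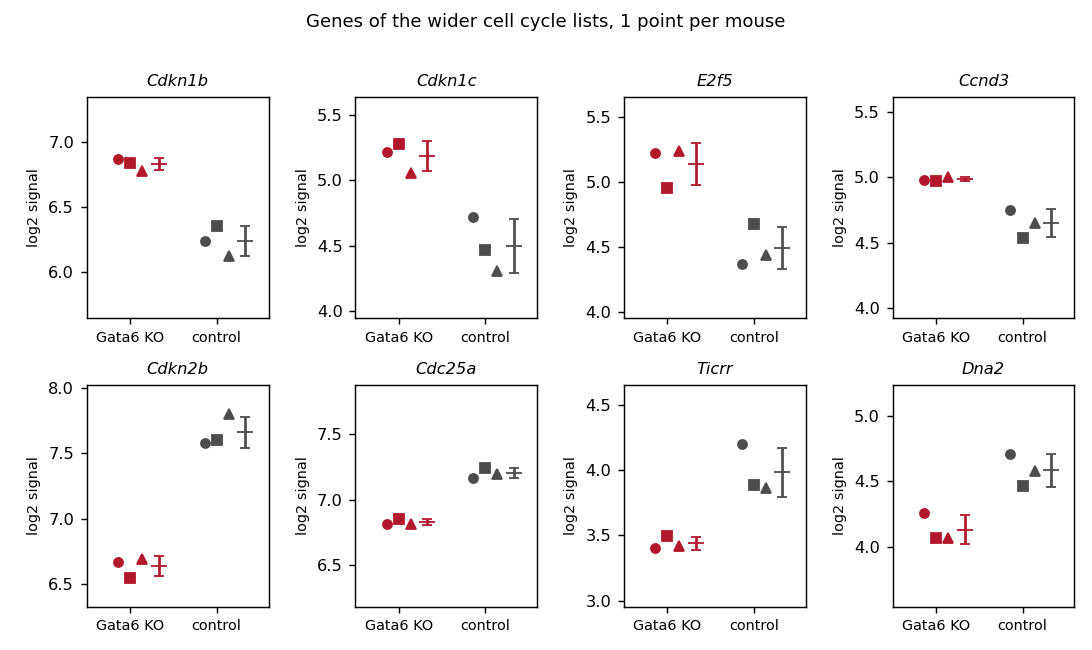
Log2 signal (y axis) of 8 genes of the wider lists in mice labelled Gata6 KO (red, left) and control mice (grey, right), 1 point per mouse, with circles for replicate 1, squares for replicate 2 and triangles for replicate 3. Bars give the mean ± SD (n = 3). The KO-labelled mice lie above the controls for Cdkn1b, Cdkn1c, E2f5 and Ccnd3, and below them for Cdkn2b, Cdc25a, Ticrr and Dna2.

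Among 21 retinoblastoma, E2F, MYB and DREAM factors the median was -0.034, and 1 rose. That gene, E2f5, is a repressive E2F that joins the DREAM complex. It read 5.22, 4.95 and 5.24 in the KO-labelled mice, against 4.37, 4.67 and 4.43 in the controls, a difference of 0.64 (SE 0.12, limma adjusted p = 0.0204), and passed in 2 of the 6 fits that leave out 1 mouse. In this family E2f2 was thus lower and E2f5 higher in the KO-labelled mice, and no other E2f gene measured passed. These 2 calls do not describe activators and repressors as classes. E2f1 and E2f3 had -0.009 and -0.034. Unlike E2f5, E2f4, E2f7 and E2f8 lay below 0, at -0.11, -0.21 and -0.115, and the groups of E2f7 did not overlap. E2f6 had 0.14.

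The next lists hold genes that act beside the replication genes above. Of 19 genes of origin recognition and firing, 12 lay below 0, with a median of -0.14. Ticrr, which helps load Cdc45 onto origins, fell by 0.55 (SE 0.11, limma adjusted p = 0.0252), at 3.40, 3.50 and 3.42 in the KO-labelled mice, against 4.20, 3.89 and 3.87 in the controls. For 24 genes of the replication fork and chromatin assembly, 19 lay below 0 and the median was -0.15. Dna2, a nuclease that processes Okazaki fragments, fell by 0.45 (SE 0.10, adjusted p = 0.0351), at 4.26, 4.07 and 4.07 in the KO-labelled mice, against 4.71, 4.46 and 4.58 in the controls. Both genes kept the groups apart, yet Ticrr passed in 2 and Dna2 in 1 of the fits that leave out 1 mouse. Nucleotide synthesis genes had a median of -0.088 over 12, and Paics, a purine synthesis enzyme, rose by 0.42 (SE 0.09, adjusted p = 0.0381).

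Among genes that act in mitosis, 25 of 32 kinetochore and spindle checkpoint genes lay below 0, with a median of -0.13. Cenph, a subunit of the inner kinetochore, fell by 0.43 (SE 0.10, limma adjusted p = 0.0462). Of 25 genes of spindle motors and cytokinesis 20 lay below 0, none passed limma's threshold, and 2 had an unadjusted p under 0.05; the smallest p belonged to Kif22, a chromosome motor, at -0.29 (adjusted p = 0.16). The list of 19 condensin, cohesin and chromosome proteins had a median of -0.049, and H2az1, the histone variant H2A.Z, fell by 0.35 (SE 0.08, adjusted p = 0.0432). H2az1 also has 2 probe sets, of which the brighter was used. Over 27 genes of the anaphase ubiquitin ligase, CDC25, WEE1 and checkpoint kinases the median was 0.005. Cdc25a, the phosphatase that activates cyclin-dependent kinases at S phase entry, read 6.81, 6.86 and 6.82 in the KO-labelled mice, against 7.17, 7.24 and 7.20 in the controls. Values within each group are nearly equal, and the difference was -0.37 (SE 0.07, adjusted p = 0.0206). Cdc25a passed in 2 of 6 fits that leave out 1 mouse, and Cenph, H2az1 and Paics each in 1 of 6. Without control 3, the array with male signals, Cdkn1b differed by 0.53 and Cdkn2b by -0.96, and both passed (limma adjusted p = 0.0335 and 0.00914). The other 9 named above as changed kept their direction there but did not pass, with log2 differences of 0.59 for Cdkn1c, 0.61 for E2f5, 0.34 for Ccnd3, 0.37 for Paics, -0.61 for Ticrr, -0.46 for Dna2, -0.47 for Cenph, -0.33 for H2az1 and -0.38 for Cdc25a, at adjusted p of 0.0555 to 0.133.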

How the data were processed

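Affymetrix mouse gene arrays, 1 per mouse, measured RNA of 6 whole ilea. The values are log2 signals per probe set, as the authors deposited them; per the submitters' processing notes the software was Affymetrix Expression Console, with no version. How background, normalization and summary were handled is not stated in the labels, and base 2 was taken from the range of the values. Of 35557 probe sets, 21789 have 1 symbol in the probe table, 1621 have several and 12147 have none or are not listed. Arrays were not rescaled and no gene was left out as dim.

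The 19938 genes were fitted with limma 3.58.1 in R 4.3.3 (lmFit and eBayes, two-sided, Gata6 KO minus control), with Benjamini-Hochberg adjustment over all of them and a threshold of 0.05. The p-values measure the spread between mice. The cell cycle genes and all lists were chosen with earlier results of these data known. Genes were named by rule: those past the threshold, Mki67, Pcna, Top2a and Cdk1, the 3 with the smallest p in each of 8 roles, and in each wider list up to 3 that passed or the 1 with the smallest p. Others are named by group or after their values were seen.

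On simulated arrays of all 19938 genes for this comparison, log2 changes of 0.5, 1 and 2 were called in 46.3%, 98.8% and 100% of the genes given them, and 6.53% of calls were false. Each simulation changed 200 genes and drew the noise of every gene independently. The measured arrays have more calls and genes that move together, so these rates may not hold for them. Alternatives covered scaling, filters, the choice of probe set, the variance prior, weights, blocks, covariates and leaving out each mouse.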

Additional observations from a re-analysis of the deposited data

How the results depend on the processing

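The number of genes of the 50 that fell (2) became 1 with arrays centred on their medians or with pan-epithelial means made equal, and 0 without variance moderation and with a smooth muscle or a B cell covariate, and it was 0 to 2 when 1 mouse was left out. Of the wider lists, where 5 rose and 6 fell, the numbers that rose and fell were 8 and 4 after centring, 3 and 3 with pan-epithelial means equal, 0 and 2 without moderation, 0 and 0 with the smooth muscle covariate and 1 and 0 with the B cell covariate. With dim genes left out 10 of the wider lists fell. Of the 50 genes, Cdc6 then passed beside E2f2 and Birc5, as it did with the trended, robust prior. When 1 mouse was left out, 1 to 3 rose and 1 to 10 fell. Over all genes 1643 were called, and 274 without moderation, 104 with the smooth muscle covariate, 160 with the B cell covariate (where the median of the 50 genes was -0.23) and 597 to 1403 when 1 mouse was left out. The smooth muscle covariate took the median of the mitosis genes to 0.011 and the replication minus mitosis difference to -0.11, and the B cell covariate took that difference to -0.067. It was -0.070 to 0.035 when 1 mouse was left out. Among the named genes, Ncapg turned to 0.022 after centring, 0.096 with the B cell covariate, 0.16 with the smooth muscle covariate and 0.011 to 0.040 without KO 2, KO 3 or control 2 (-0.16 to 0.040 over all fits that left out 1 mouse), and Top2a turned to 0.15 with the most variable probe set. Under the smooth muscle covariate Uhrf1 (0.18), Aurkb (0.051), Bub1b (0.11), Ube2c (0.13) and Cdca3 (0.21) also turned. The cause was not tested. With the most variable probe set of each gene, 1 of the called genes no longer passed. Quantile normalization, the mean over probe sets, array weights and the trended, robust prior changed none of these counts by more than 1.5 times and turned none of the named genes.

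The replicate numbers are shared by both groups. Same-numbered arrays correlated at 0.043, -0.040 and 0.15 in their deviations from the group means, and arrays of unlike number at -0.123 to 0.078. With 3 arrays per group these values cannot show whether the mice were paired. With the replicate block, 0 of the 50 genes fell (limma adjusted p = 0.068 for E2f2 and 0.0617 for Birc5), 2 of the wider lists rose and 3 fell, and 1241 of all genes were called.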
